A study of Mus musculus with 12 samples.

Results

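Common lymphoid progenitors (CLPs) of *Firre* rescue mice were compared with those of wild-type (WT) mice. The comparison rests on the 8 poly(A)+ RNA-seq libraries, of 12 in the series, that the labels call Rescue (4 libraries, replicates 1 to 4) or WT (4 libraries, replicates 6, 8, 10 and 11). All 8 came from adult male mice, matched for age, and the CLPs were sorted from bone marrow as lineage-negative cells with IL7Ra and with low Sca1 and c-Kit. The rescue mice carried ∆*Firre*, a deletion of the whole gene with its promoter, together with a mouse *Firre* cDNA transgene behind a tet-responsive element and a CAG-driven rtTA3, and were fed doxycycline (dox). In the WT mice the endogenous locus was intact. No transgene or rtTA3 is described for the WT mice. The methods give regular chow as the general diet and, for the CLP libraries, name dox with rescue mice only. The diet of these WT mice is not given separately. The parts of these factors and of the source of *Firre* RNA cannot be told apart. Each value is a TPM, a length-scaled share of a library, and values below are given in the replicate order 6, 8, 10 and 11 for WT and 1 to 4 for rescue.

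*Firre* is a long non-coding RNA that is transcribed from the X chromosome. CLPs give rise to B cells and also to T, NK and innate lymphoid cells. Commitment to the B lineage runs through the transcription factors E2A (*Tcf3*), *Ebf1* and *Pax5*, which switch on the surrogate light chain and the signaling subunits of the pre-B receptor. Immediate early genes, such as those of the AP-1 family of transcription factors, are transcribed within minutes of a stimulus without new protein synthesis.

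The rescue libraries held 25782894 to 32574214 recovered reads and the WT libraries 10991633 to 18175693, while 15140 to 16835 genes were above 0 in rescue and 15472 to 19877 in WT. Library numbers in the labels form a separate range for rescue, and in WT they are adjacent for replicates 8 and 11 and for 6 and 10. A difference between such ranges and the difference between genotypes cannot be told apart. No pair of libraries was a duplicate, since the median gene differed by 0.209 to 0.474 (log2) between replicates of a group. *Firre* (chrX:50563120-50635321, GRCm38) was at 26.4, 31.6, 25.2 and 30.2 TPM in WT and at 59.9, 135, 63.01 and 174 TPM in rescue, and it was listed at 0 in all 4 ∆*Firre* libraries of the series. Every rescue library thus lay above every WT library, and rescue replicates 2 and 4 held more than replicates 1 and 3. The same length, 8247 bases, scales *Firre* in both groups. In rescue the RNA came from a cDNA whose length is not given, so the size of the difference may not compare like with like. The log2 difference, which here and below is rescue minus WT on log2(TPM + 1), was 1.75 (95% CI 1.04 to 2.46, adjusted p = 0.012), and the exact permutation test over 70 labelings gave p = 0.0286, the smallest it can give. With only 2 WT libraries in the fit the difference missed the threshold (adjusted p = 0.181 with replicates 8 and 11, and 0.122 with 6 and 10).

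Expression still differed widely from WT in rescue CLPs. Among the 14336 genes that averaged 1 TPM or more, limma on log2(TPM + 1) called 2251 (15.7%) with adjusted p-values up to 0.1, 528 higher (3.68%) and 1723 lower (12%) in rescue. The median log2 difference over these genes was -0.21 as deposited and -0.03 after median-ratio rescaling, which equalizes the typical gene between libraries and turned the split to 902 higher and 708 lower. Genes are therefore said to have risen or fallen only where they were called in the same direction as deposited and after this rescaling, which held for 1234 genes (8.61%), 526 higher (3.67%) and 708 lower (4.94%). These are the shares of all genes against which each count of genes that rose or fell in a group stands. The groups did not overlap in 2592 genes (18.1%). Differences also ran with base composition (Spearman rho = 0.32 between log2 difference and exon GC content across 12987 genes of the same 8 libraries). Values corrected for GC content are therefore given beside part of the results. After GC correction alone 6.94% of these genes were higher and 3.03% lower. An empirical null, which widens the spread assumed for unchanged genes, called 0 genes, with 981 at an unadjusted p under 0.05. The test by limma-voom, on recovered reads, called 1611 of the 14336 genes, against which each limma-voom count in a group stands. Without WT replicate 10, 11 or rescue replicate 4 the genes called higher on both scales fell in number to 316, 340 and 321, and without WT replicate 6, 10, 11 or rescue replicate 4 those called lower numbered 387, 377, 391 and 375. In the plot of gene groups, the B-lineage, AP-1, ribosomal protein and histone genes lay to the right and the basophil, immunoglobulin and megakaryocyte genes to the left. These medians depend on the filter, since a gene near 0 in 1 group can pass it through the other. With no filter on low values the median of AP-1 genes was 0.05 (11 genes). Those of B-lineage, ribosomal protein and basophil genes were then 0.91, 0.62 and -2.30.

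**Figure D1:**
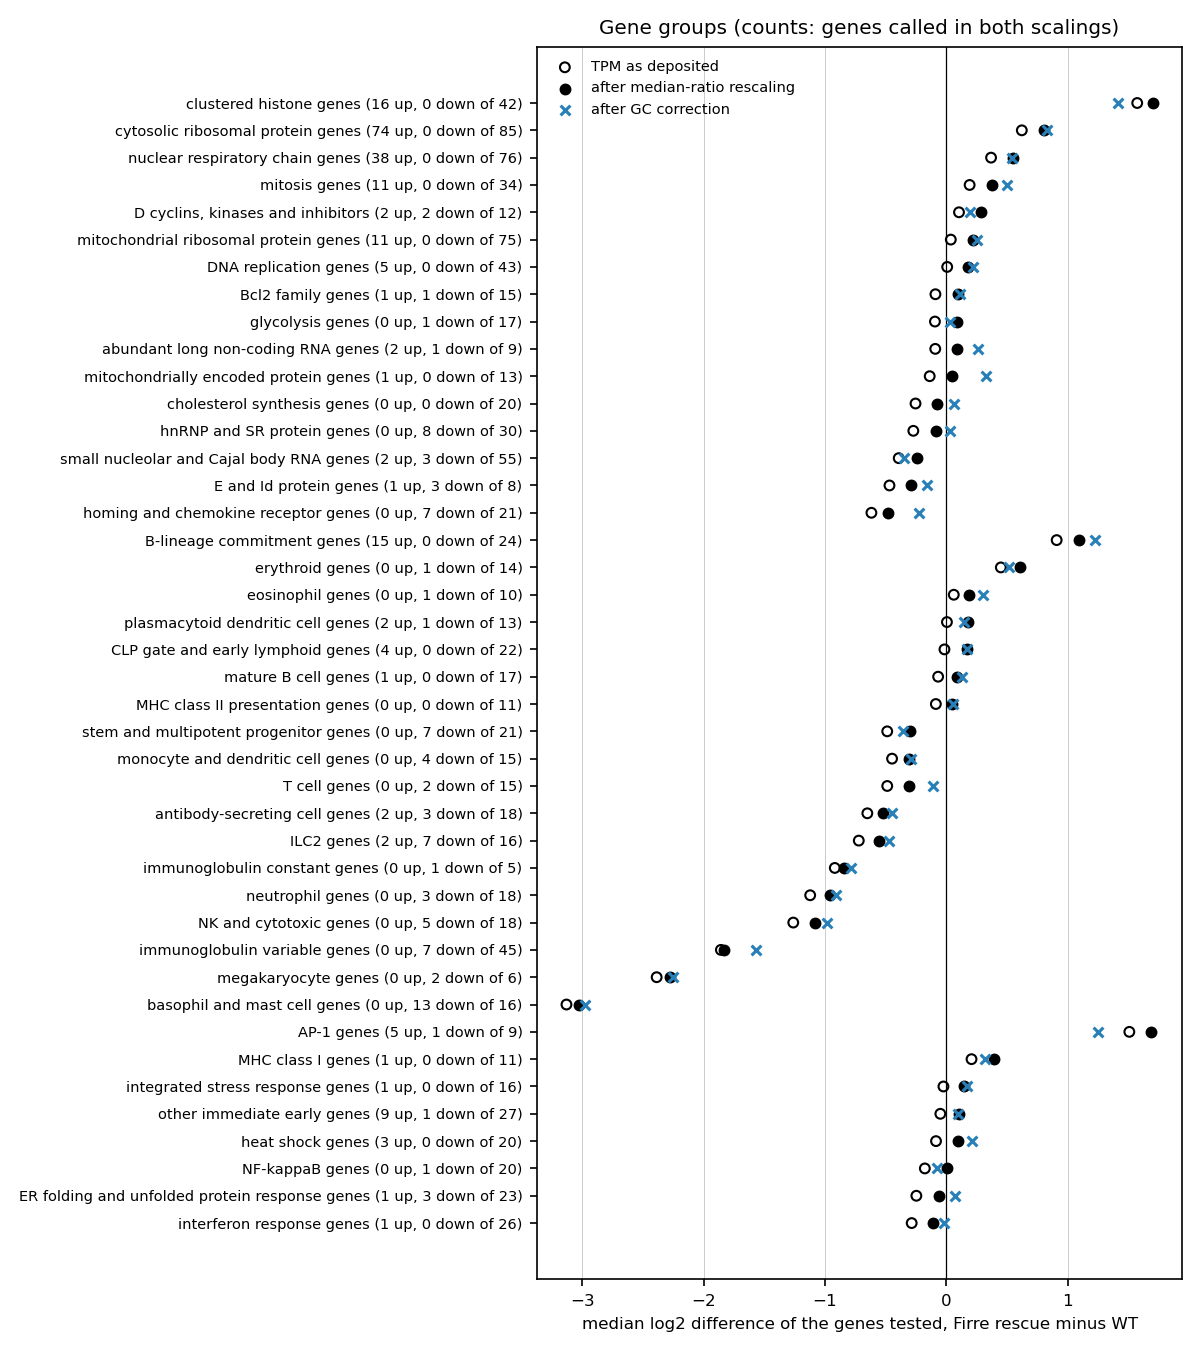
Median log2 difference (rescue minus WT) of the genes tested in each of 42 gene groups, for TPM as deposited (open circles), after median-ratio rescaling (filled circles) and after GC correction (crosses); the numbers beside each name count genes called in both scalings. The basophil and mast cell group has the lowest median, -3.13 as deposited, and the clustered histone group the highest, 1.57.

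Both groups expressed the receptors that mark CLPs. *Il7r*, which encodes the IL-7 receptor alpha chain, was at 385, 456, 415 and 441 TPM in WT and 434, 375, 445 and 363 in rescue, and the groups overlapped. *Flt3*, the receptor for FLT3 ligand, which was not used in the sort, overlapped as well, at 508, 677, 518 and 578 against 563, 517, 709 and 576 TPM. *Kit*, the stem cell factor receptor, was at 63.1, 82.9, 61.9 and 75.1 TPM in WT and 48.2, 50.2, 62.3 and 52.9 in rescue, a log2 difference of -0.40, adjusted p = 0.098, that was not called after rescaling (adjusted p = 0.32), and *Ly6a*, which encodes Sca1, was not called (log2 difference 0.34, adjusted p = 0.27). *Dntt*, the terminal transferase of antigen receptor joining, was abundant in every library, at 4315, 6725, 5213 and 6185 TPM in WT and 6224, 6272, 6562 and 6469 in rescue. Of the antigens in the lineage cocktail, *Cd3e* stood at 0 in every rescue library and at 0.732, 0, 0.238 and 0 in WT, and *Ly6g* at no more than 3.02 TPM in any library. *Itgam*, which encodes the cocktail antigen CD11b, was detected in every library and fell from 15.9, 18.8, 9.69 and 12.5 TPM in WT to 6.796, 4.52, 7.07 and 4.37 in rescue (log2 difference -1.17, adjusted p = 0.03), without overlap. It was not called on both scales without WT replicate 6 or 8 or rescue replicate 4.

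Genes of B-lineage commitment were higher in rescue CLPs, led by those of the pre-B receptor. Of 24 such genes 15 rose and 0 fell, against 3.67% of all genes, and the median log2 difference was 0.91 as deposited, 1.09 after rescaling and 1.22 after GC correction. Leaving out any single library kept the count between 13 and 15, and it was 7 with WT replicates 8 and 11 alone and 12 with 6 and 10 alone.

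*Vpreb1* (chr16:16868401-16869255), a surrogate light chain component, was at 28.7, 28.4, 46.2 and 59.97 TPM in WT and 192, 233, 147 and 257 in rescue. Its lowest rescue library lay above its highest WT library, and the log2 difference was 2.36 (95% CI 1.78 to 2.93, adjusted p = 0.0014). *Igll1* (chr16:16860671-16863985), the lambda5 partner of VpreB, was at 18.4, 41.3, 31.01 and 40.9 TPM in WT and 135, 178, 93.4 and 210.4 in rescue, also without overlap, with a log2 difference of 2.20 (95% CI 1.54 to 2.86, adjusted p = 0.0035). *Vpreb3*, a chaperone-like relative of VpreB on another chromosome, moved with them, from 25.7, 24.8, 52.1 and 60.5 to 130.4, 270.4, 182 and 226 TPM (log2 difference 2.34, 95% CI 1.63 to 3.05, adjusted p = 0.0036). For each of these 3 genes the lowest rescue library exceeded the highest WT library.

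The signaling chain of the receptor, *Cd79a*, was at 55.7, 82.2, 94.6 and 122 TPM in WT and 207, 251, 287 and 370.1 in rescue, with a log2 difference of 1.67 (95% CI 1.14 to 2.20, adjusted p = 0.0046). Its partner *Cd79b* was at 62.03, 137, 79.2 and 100.3 against 165, 202, 171 and 276 TPM (log2 difference 1.13, adjusted p = 0.023). The adaptor gene *Blnk* rose from 54.9, 75.2, 81.3 and 77.8 to 123, 131, 172 and 143 TPM (log2 difference 0.97, adjusted p = 0.0068). None of these 3 genes overlapped between the groups.

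The transcription factors upstream of these genes had smaller differences than the surrogate light chain genes. *Ebf1* was at 20.2, 34.7, 28.1 and 33.6 TPM in WT and 47.7, 56, 63.98 and 64.1 in rescue (log2 difference 0.99, adjusted p = 0.014). *Pax5*, which fixes B-cell identity, was at 14.3, 18.3, 24.6 and 28.9 against 44.7, 41.2, 65.8 and 60.3 TPM (log2 difference 1.28, adjusted p = 0.012). *Tcf3* was at 93.1, 90.6, 82.7 and 73.1 against 141, 108, 146 and 166 TPM (log2 difference 0.71, adjusted p = 0.018). The coactivator gene *Pou2af1* rose too (log2 difference 1.07, adjusted p = 0.016), whereas *Foxo1* (log2 difference 0.56, adjusted p = 0.14), *Bcl11a* (log2 difference 0.03, adjusted p = 0.93) and *Sox4* (log2 difference -0.43, adjusted p = 0.11) were not called.

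Among early lymphoid genes 4 of 22 rose and 0 fell (7 higher and 1 lower after GC correction). *Rag1*, a subunit of the V(D)J recombinase, was at 141, 155, 188 and 215 TPM in WT and 277, 320.1, 334 and 318 in rescue (log2 difference 0.85, adjusted p = 0.0073), and its partner *Rag2*, at 115, 110.5, 120.2 and 126 against 129, 132, 133 and 159 TPM, was not called (log2 difference 0.22, adjusted p = 0.19) although its groups did not overlap. *Ly6d*, which marks CLPs biased to the B lineage, was at 586, 457, 549 and 521 TPM in WT and 1065, 1559.6, 1257 and 1151 in rescue (log2 difference 1.24, 95% CI 0.96 to 1.53, adjusted p = 0.0012). Every rescue library held more *Ly6d* than the highest WT library. *Bst1* rose from low levels, 2.41, 7.89, 8.13 and 4.92 to 11.2, 11.7, 20.9 and 26.5 TPM (log2 difference 1.46, adjusted p = 0.047), and was not called without WT replicate 6, 11 or rescue replicate 4 (adjusted p of at least 0.11). Of 17 mature B cell genes only the kinase gene *Blk* rose (log2 difference 0.60, adjusted p = 0.029), and of 11 MHC class II genes 0 were called on both scales, and limma called 0 as deposited (2 at an unadjusted p under 0.05) and limma-voom 2. Of these 11 genes 2 were higher after rescaling (6.29% of all genes) and after length correction (7.62%), and 3 were higher (6.94%) and 1 lower (3.03%) after GC correction. *Cd74*, the invariant chain, had a log2 difference of -0.71, adjusted p = 0.104. In bulk samples, fewer cells of a type and less RNA per cell cannot be told apart.

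**Figure D2:**
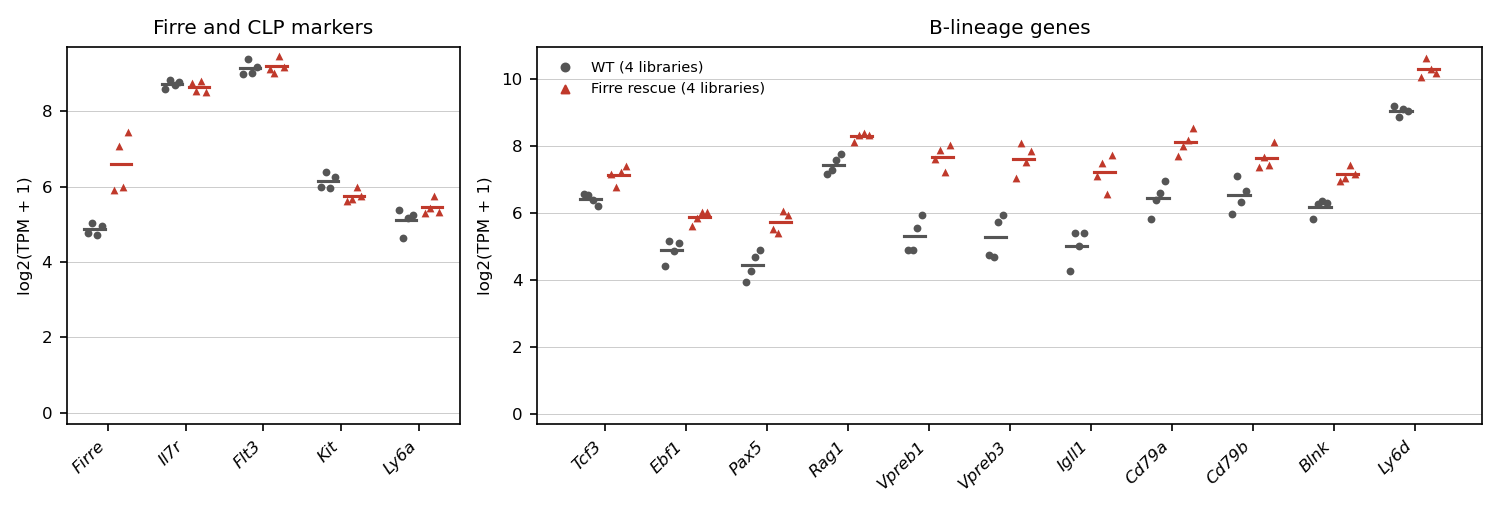
log2(TPM + 1) of *Firre* and CLP markers (left) and of B-lineage genes (right) in each WT (gray circles) and rescue (red triangles) library, with bars at the group means. *Il7r*, *Flt3*, *Kit* and *Ly6a* overlap between groups. Each of the 11 B-lineage genes at right is higher in every rescue library than in any WT library.

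Genes of basophils and mast cells were far lower in rescue libraries. Of 16 tested, 13 fell and 0 rose, against 4.94% of all genes, and the median log2 difference was -3.13 (-2.98 after GC correction). The summed level of the 21 genes listed was 1492 to 10142 TPM in WT libraries and 262 to 353 in rescue. Leaving out any single library kept the count between 11 and 14, and it was 12 without WT replicate 6, which stood above the other WT libraries in these genes, and 10 and 12 with each pair of WT libraries alone.

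*Prss34* (chr17:25298394-25300168), a serine protease of basophils, was at 4026, 448, 834 and 1315 TPM in WT and 12.8, 23.8, 0 and 0 in rescue. WT replicate 6 held more than any other library, and rescue replicates 3 and 4 held no read. The log2 difference was -8.11 (95% CI -10.53 to -5.69, adjusted p = 0.0033), and limma-voom on the recovered reads did not call it (adjusted p = 0.14). *Mcpt8*, the basophil protease that marks this lineage in mice, fell from 2708, 207, 385 and 760 to 20.7, 22.6, 9.06 and 2.11 TPM (log2 difference -5.82, 95% CI -7.63 to -4.02, adjusted p = 0.0041). The subunits of the IgE receptor fell likewise, with *Fcer1a* at 784, 112, 155 and 170.3 TPM in WT and 0, 6.11, 0 and 0 in rescue, and *Ms4a2* at 524, 74, 126 and 154 against 0, 0.128, 0 and 0. The last 2 genes were not called by limma-voom either (adjusted p = 0.12 and 0.15). Over the group, 11806 reads of *Ms4a2* were recovered in WT and 4 in rescue.

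*Gata2*, a transcription factor of basophil, mast cell and stem cell programs, was at 178, 20.8, 34.8 and 37.9 TPM in WT and 0, 0.565, 0 and 0.413 in rescue (log2 difference -5.31, adjusted p = 0.0013, and adjusted p = 0.13 by limma-voom, which did not call it). *Cpa3*, a carboxypeptidase of mast cells and basophils, was reduced but present, at 826, 191, 262 and 344 against 75.9, 89.2, 84.8 and 61.4 TPM (log2 difference -2.15, adjusted p = 0.0093), as was the shared cytokine receptor chain *Csf2rb*, at 269, 91.7, 85.4 and 86.2 against 17, 23.1, 29.7 and 22.9 TPM (log2 difference -2.30, adjusted p = 0.0062). The connective tissue mast cell genes *Cma1*, *Mcpt4* and *Tpsab1* and the mucosal *Mcpt1* were at 0 in all 8 libraries. *Il3ra*, the IL-3 receptor alpha chain, was not called (log2 difference 0.21, adjusted p = 0.79).

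Several further genes were lower in rescue. *Alox15*, a lipoxygenase, was at 127, 15.4, 32.1 and 44.6 TPM in WT and had no read in any rescue library, which with a floor of 3 reads over the group makes it at least 1793-fold lower in rescue, or at least 1005-fold without WT replicate 6. The chemokine gene *Ccl6* (617, 106, 138 and 163 against 3.47, 11.3, 0 and 2.96 TPM), the chemokine receptor gene *Ccr1* (106, 11.05, 32.5 and 24.8 against 0, 0.285, 0 and 0) and the inhibitory receptor gene *Lilr4b* (467, 93.5, 126 and 153 against 2.03, 0.426, 0 and 0) were each highest in WT replicate 6 and did not overlap between groups. *Ccl3*, a chemokine gene among the NF-kappaB targets, fell from 399.6, 108, 110.1 and 151 to 21.9, 20.02, 8.51 and 12.9 TPM (log2 difference -3.38, 95% CI -4.31 to -2.44, adjusted p = 0.0025). Of 10 eosinophil genes *Alox15* alone fell and 0 rose, with *Prg2* at 90.4, 68.5, 19.4 and 16.1 TPM in WT and 171, 112, 0.113 and 4.56 in rescue.

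**Figure D3:**
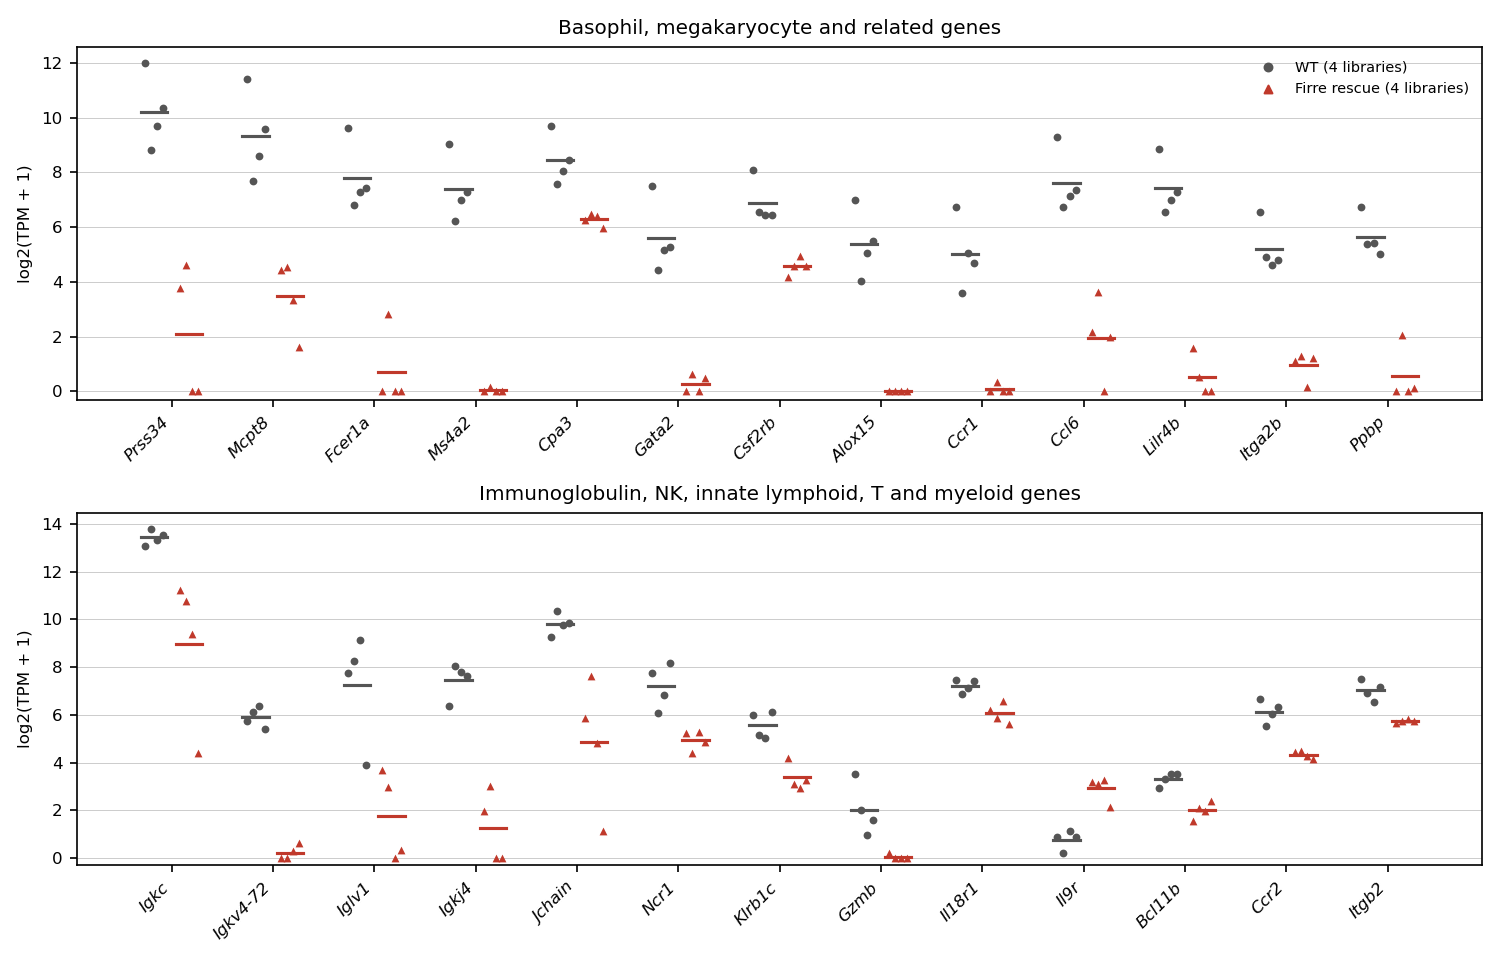
log2(TPM + 1) of basophil, megakaryocyte and related genes (top) and of immunoglobulin, NK, innate lymphoid, T and myeloid genes (bottom) in each WT (gray circles) and rescue (red triangles) library, with bars at the group means. WT replicate 6 is the highest library for all 13 genes of the top panel, and *Il9r* is the only gene of the bottom panel that is higher in rescue.

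Of 6 megakaryocyte genes 2 fell, both to near 0. *Ppbp*, a platelet chemokine, was at 105, 41.2, 41.3 and 31.1 TPM in WT and 0, 3.15, 0 and 0.09802 in rescue (log2 difference -5.09, adjusted p = 0.0012), and *Itga2b*, the platelet integrin CD41, at 92.4, 29.04, 23.4 and 27.1 against 1.18, 1.45, 0.121 and 1.32 TPM (log2 difference -4.27, adjusted p = 0.0013). The count was 2 or 3 without any single library. Of 14 erythroid genes 1 fell, *Gata1* (log2 difference -1.49, adjusted p = 0.048, and adjusted p = 0.11 by limma-voom), and it was called on both scales in only 1 of the 8 fits that left out a library.

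Transcripts of the kappa constant gene and of some immunoglobulin variable genes were lower in rescue. The kappa constant gene *Igkc* was at 8709, 14169, 10192 and 11967 TPM in WT and 2392, 1759.8, 678 and 19.95 in rescue, so that the groups did not overlap, and rescue replicate 4 was far below the other rescue libraries. The log2 difference was -4.48 (95% CI -7.21 to -1.76, adjusted p = 0.052), and it was not called without any 1 of the 4 WT replicates (adjusted p of 0.122 to 0.134), nor on both scales without rescue replicate 3. *Ighm*, the mu constant gene, did not overlap either but was called only as deposited (log2 difference -0.68, adjusted p = 0.059), at 4959, 3123, 2970.4 and 5559.6 TPM in WT and 2489, 2559.6, 2595 and 2347 in rescue.

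Of 45 immunoglobulin variable genes tested 7 fell and 0 rose (limma-voom called 3, against 1611 of all 14336 genes). Their summed level over 89 genes was 2840.4 to 3847 TPM in WT and 31.5 to 650.4 in rescue. *Igkv4-72* was at 52.8, 69.3, 81.6 and 41.1 TPM in WT and 0, 0, 0.235 and 0.528 in rescue, with 467 and 3 recovered reads over the groups, a ratio of 0.00325 per total reads (95% interval 0.000667 to 0.00955, counting error only). *Iglv1* was at 216, 303, 563 and 13.9 against 12.03, 6.88, 0 and 0.271 TPM (log2 difference -5.50, adjusted p = 0.022, and adjusted p = 0.23 by limma-voom, which did not call it), lowest among WT libraries in replicate 11. Its call on both scales was lost without WT replicate 10 or rescue replicate 4. The count of 7 dropped to 3, 2, 4, 2, 4, 3 and 1 without WT replicates 6, 10 and 11 and rescue replicates 1 to 4, and variable genes share sequence, so single members are uncertain. The joining segments *Igkj2*, *Igkj3* and *Igkj4*, which are short and rest on 100, 75 and 133 reads in WT, had 4, 0 and 4 reads in rescue.

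*Jchain*, the joining chain of secreted IgM and IgA, was at 619, 1296, 868 and 911 TPM in WT and 58.1, 195, 27.7 and 1.18 in rescue (log2 difference -4.94, 95% CI -7.34 to -2.54, adjusted p = 0.025). Its lowest rescue library, replicate 4, was also the lowest in *Igkc*. *Jchain* was not called on both scales without WT replicate 10 or 11. *Xbp1*, the regulator of secretory cells, was lower by a smaller amount, at 145, 145, 141 and 130.2 against 106, 87.2, 97.1 and 107 TPM (log2 difference -0.49, adjusted p = 0.019, and adjusted p = 0.11 after GC correction). It was called on both scales in 2 of the 8 fits that left out a library. In all 3 of 18 antibody-secreting cell genes fell, the third being *Edem1* of glycoprotein disposal (adjusted p = 0.15 after GC correction), and 1 fell without WT replicate 6, 10, 11 or rescue replicate 4, while 2, *Pou2af1* and the ER chaperone gene *Mzb1* (log2 difference 1.30, adjusted p = 0.03), rose.

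Some NK, innate lymphoid and T-lineage genes fell in rescue, and several of these calls depended on single libraries. Of 18 NK and cytotoxic genes 5 fell (4.94% of all genes) and 0 rose, with a median of -1.26 (-0.98 after GC correction). *Ncr1*, the activating receptor NKp46, was at 216, 67.6, 112 and 288 TPM in WT and 37.2, 20.4, 37.4 and 27.8 in rescue (log2 difference -2.26, 95% CI -3.16 to -1.37, adjusted p = 0.011). *Klrb1c*, the NK1.1 antigen, was at 62.2, 34.3, 32.2 and 67.8 against 17.3, 7.69, 6.64 and 8.75 TPM (log2 difference -2.19, adjusted p = 0.0062), while *Nkg7*, a granule protein gene, was not called (log2 difference -0.19, adjusted p = 0.47). The count of 5 became 2, 2, 3, 3 and 2 without WT replicates 6 and 11 and rescue replicates 2, 3 and 4.

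Of 16 genes of type 2 innate lymphoid cells 7 fell and 2 rose (5 lower and 2 higher after GC correction). *Il18r1*, an IL-18 receptor chain, was at 176, 117, 141 and 172 TPM in WT and 73.7, 56.9, 94.97 and 48.5 in rescue (log2 difference -1.16, adjusted p = 0.012), and *Id2*, an inhibitor of E proteins, at 439.9, 209.6, 296 and 351 against 161, 175, 152 and 155 TPM (log2 difference -0.96, adjusted p = 0.018). *Id2* was called on both scales in only 2 of the 8 fits that left out a library. *Il9r*, the IL-9 receptor, went the other way, from 0.8504, 0.172, 1.17 and 0.835 to 8.18, 7.62, 8.79 and 3.43 TPM (log2 difference 2.16, 95% CI 1.29 to 3.03, adjusted p = 0.012), as did the Notch target *Hes1* (log2 difference 0.70, adjusted p = 0.038, not called on both scales without WT replicate 6 or rescue replicate 4). The effector cytokine genes *Il5* and *Il13* were at or below 0.274 TPM in all libraries. The count of 7 was 3, 2, 2, 4 and 3 without WT replicates 6, 10 and 11 and rescue replicates 2 and 4.

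In the T-cell group *Trbc1*, a T-cell receptor beta constant gene, fell from 223, 218, 200.4 and 327 to 155, 103, 109 and 144 TPM (log2 difference -0.91, adjusted p = 0.017), and *Bcl11b*, a T-lineage regulator, from 6.72, 9.01, 10.4 and 10.6 to 1.97, 3.28, 2.94 and 4.28 (log2 difference -1.32, adjusted p = 0.024, not called on both scales without WT replicate 10 or 11). They were 2 of 15 genes (4 without WT replicate 6, and 1 without WT replicate 10 or 11), whereas *Lck* (log2 difference -0.16, adjusted p = 0.5) and *Cd247* (log2 difference 0.65, adjusted p = 0.15) were not called.

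Some myeloid and stem cell genes fell as well. Among 15 monocyte and dendritic cell genes 4 fell, among them *Clec9a* of cross-presenting dendritic cells (log2 difference -2.09, adjusted p = 0.033, not called on both scales without WT replicate 6 or 10 or rescue replicate 4) and *Ccr2*, a chemokine receptor of monocytes, at 102, 45.1, 64.8 and 79.03 TPM in WT and 20.8, 21.2, 18.2 and 16.97 in rescue (log2 difference -1.80, 95% CI -2.30 to -1.30, adjusted p = 0.0025). The count was 2 without WT replicate 6 or rescue replicate 4. Of 18 neutrophil genes 3 fell (*Mmp9*, *Ctsg* and *Csf3r*), and the count was 1, 0, 1 and 1 without WT replicates 10 and 11 and rescue replicates 2 and 3. After GC correction 5 were lower (3.03% of all genes). The granule genes *S100a8* and *S100a9* varied within both groups, *S100a8* being at 0.909, 223, 145 and 301 TPM in WT and 439, 37.4, 0 and 62.6 in rescue.

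Of 21 stem and multipotent progenitor genes 7 fell and 0 rose (4 without WT replicate 10). After GC correction 5 were lower and 0 higher. *Gata2*, given above with the basophil genes, is also in this list. *Angpt1*, a ligand of the Tie2 receptor, was at 107, 86.9, 96.1 and 99.9 TPM in WT and 57.95, 40.97, 41.5 and 40.4 in rescue (log2 difference -1.10, 95% CI -1.42 to -0.79, adjusted p = 0.0027), and *Tal1*, a bHLH factor of blood stem cells, at 41.8, 41.8, 34.4 and 27.3 against 22.3, 13.2, 15.4 and 19.3 TPM (log2 difference -1.01, adjusted p = 0.02, not called on both scales without WT replicate 6). Of 21 homing and chemokine receptor genes 7 fell and 0 rose (6 lower and 0 higher after GC correction). *Itgb2*, the beta2 integrin, was at 179.9, 119, 91.5 and 145 TPM in WT and 49.4, 52.1, 56.4 and 52 in rescue (log2 difference -1.29, 95% CI -1.70 to -0.89, adjusted p = 0.0044). Of 13 plasmacytoid dendritic cell genes 2 rose and 1, the E protein gene *Tcf4*, fell (log2 difference -0.79, adjusted p = 0.027, and adjusted p = 0.19 after GC correction). In this group 1 rose without WT replicate 8, 10 or 11 or rescue replicate 1, 2 or 4, and 0 fell without WT replicate 10 or rescue replicate 1 or 4.

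*Fos*, *Fosb*, *Jun*, *Junb* and *Jund*, immediate early genes of the AP-1 family, were higher in every rescue library than in any WT library, and *Fosb*, *Fos* and *Jun* had the 3 largest rises on log2(TPM + 1), which understates low genes, among genes with an assigned name called in both scalings. By limma-voom the log2 differences of *Hspa1a* (6.43) and *Hspa1b* (4.38) exceeded those of *Fos* (4.20) and *Jun* (4.04), though limma-voom did not call this pair. Of 9 AP-1 genes tested, 5 rose (*Fosb*, *Fos*, *Jun*, *Junb* and *Jund*) and 1 fell (*Fosl2*), and these 5 were called without any single library and with either pair of WT libraries alone. *Fos* (chr12:85473890-85477274) was at 3.04, 12.2, 19.2 and 8.32 TPM in WT and 184, 153, 174 and 94.2 in rescue. *Jun* (chr4:95049036-95052222), its dimer partner, was at 10.2, 12.8, 26.3 and 27.3 against 332, 224, 282 and 236 TPM. For both genes the lowest rescue library held several times the level of the highest WT library, and the log2 differences were 3.88 (95% CI 2.92 to 4.84, adjusted p = 0.0014) for *Fos* and 3.84 (95% CI 3.18 to 4.50, adjusted p = 0.00032) for *Jun*, or 4.06 and 3.91 after GC correction.

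*Fosb* was at 0.0674, 0, 0.246 and 0 TPM in WT and 15.8, 14.2, 29.5 and 11.5 in rescue, on 11 and 4511 recovered reads, and its log2 difference was 4.04 (95% CI 3.25 to 4.82, adjusted p = 0.00063) with a pseudocount of 1. *Junb* was at 20.01, 16.4, 17.4 and 18.4 against 74.04, 55.1, 79.4 and 60.1 TPM (log2 difference 1.83, adjusted p = 0.00049), and *Jund* at 24.05, 17, 21.6 and 21.5 against 78.4, 53.4, 68.8 and 48.8 (log2 difference 1.51, adjusted p = 0.0019). *Fosl2* ran in the opposite direction, at 12.1, 4.85, 6.37 and 6.54 TPM in WT and 1.77, 1.76, 2.45 and 1.22 in rescue (log2 difference -1.54, adjusted p = 0.026), while *Batf* (log2 difference -0.79, adjusted p = 0.22) and *Mafk* (log2 difference 0.05, adjusted p = 0.83) were not called.

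Some other immediate early genes rose as well. Of 27 tested 9 rose and 1 fell, with 7 to 9 rising without any single library. The gene that fell, *Ier3* (log2 difference -1.23, adjusted p = 0.026, and adjusted p = 0.11 by limma-voom), was called on both scales in only 1 of the 8 fits that left out a library. *Dusp1*, a phosphatase of MAP kinases, was at 4.84, 2.11, 3.99 and 5.24 TPM in WT and 32.2, 24.9, 28.1 and 26.9 in rescue (log2 difference 2.57, adjusted p = 0.0012). *Ppp1r15a*, which directs dephosphorylation of eIF2alpha, was at 11.3, 11.8, 12.3 and 10.8 against 72.6, 49.4, 84.6 and 56.6 TPM (log2 difference 2.38, 95% CI 1.98 to 2.79, adjusted p = 0.00032). Neither gene overlapped between groups, and the WT values of *Ppp1r15a* lay close together.

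*Egr1*, a zinc finger transcription factor, was at 3.99, 2.6, 3.503 and 3.2 TPM in WT and 22.5, 13.8, 17.1 and 10.7 in rescue (log2 difference 1.94, adjusted p = 0.0042), and *Ier2* at 49.3, 41.3, 28.9 and 46.6 against 136, 105, 91.5 and 120.4 TPM (log2 difference 1.44, adjusted p = 0.0027). *Zfp36*, which destabilizes AU-rich mRNAs, rose from 41.6, 38.4, 37.6 and 41.5 to 77.6, 57.9, 89.2 and 56.5 TPM (log2 difference 0.78, adjusted p = 0.02). Genes of the same class that overlapped between groups were *Nr4a1* (3.32, 9.19, 4.62 and 2.197 against 2.57, 1.16, 5.46 and 5.54 TPM), *Myc* (log2 difference -0.17, adjusted p = 0.57), *Btg2* (log2 difference -0.14, adjusted p = 0.57) and the activation antigen gene *Cd69* (log2 difference -0.14, adjusted p = 0.58).

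The 250 bases before the start site of 3 of these genes are shown because they hold TGACGT, the core of the cAMP response element. Capitals mark TGACGT on either strand, so that a run of 8 capitals is the palindrome TGACGTCA, and sequences run 5′ to 3′ toward the gene (RefSeq, GRCm38.p6). *Fos* is at chr12:85473640-85473889 on the plus strand, *Dusp1* at chr17:26508473-26508722 on the minus strand and *Ppp1r15a* at chr7:45526269-45526518 on the minus strand.
Fos: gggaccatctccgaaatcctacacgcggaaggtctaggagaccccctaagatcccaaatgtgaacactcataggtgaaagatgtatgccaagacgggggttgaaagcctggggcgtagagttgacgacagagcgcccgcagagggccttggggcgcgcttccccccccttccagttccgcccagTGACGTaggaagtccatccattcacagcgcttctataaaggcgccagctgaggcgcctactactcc
Dusp1: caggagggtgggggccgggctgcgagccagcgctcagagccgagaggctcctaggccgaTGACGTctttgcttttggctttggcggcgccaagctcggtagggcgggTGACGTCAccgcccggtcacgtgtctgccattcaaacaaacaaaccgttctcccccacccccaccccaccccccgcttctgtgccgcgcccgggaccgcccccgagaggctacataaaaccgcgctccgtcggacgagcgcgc
Ppp1r15a: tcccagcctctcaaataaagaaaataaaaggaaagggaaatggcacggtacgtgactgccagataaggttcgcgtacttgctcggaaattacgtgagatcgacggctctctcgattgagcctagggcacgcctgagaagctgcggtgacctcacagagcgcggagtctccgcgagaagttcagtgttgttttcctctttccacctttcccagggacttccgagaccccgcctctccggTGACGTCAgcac

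The last base of the capitals lies 61 bases before the start site in *Fos*, 186 and 136 in *Dusp1*, and 5 in *Ppp1r15a*. TGACGT is present in 6.47% and TGACGTCA in 1.55% of the 32851 promoters of this length in the table. Of the AP-1 genes that rose 5 of 5, and of the other immediate early genes 7 of 9, have a promoter in the table. These 3 hold TGACGT on either strand, and 1 other, *Csrnp1*, holds the AP-1 motif TGANTCA, against 6.75% of all promoters. TGACGT is also in 2 of 10 promoters of B-lineage genes that rose (*Pou2af1* and *Vpreb1*). A match is a description of the letters.

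**Figure D4:**
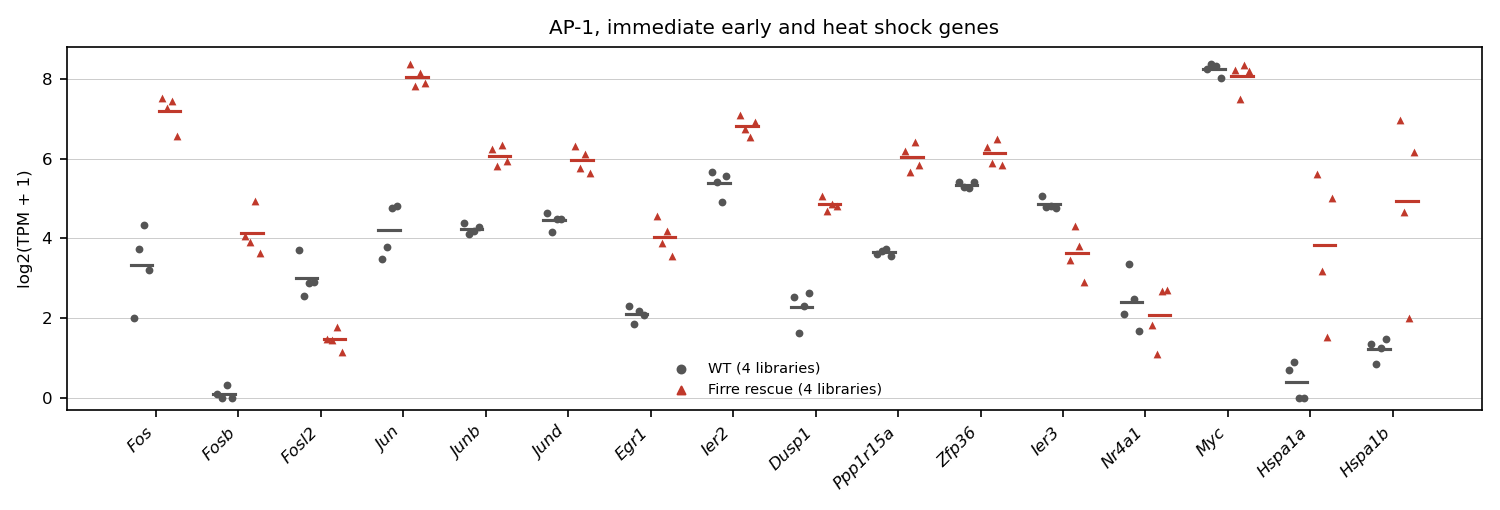
log2(TPM + 1) of AP-1, immediate early and heat shock genes in each WT (gray circles) and rescue (red triangles) library, with bars at the group means. *Fos*, *Fosb*, *Jun*, *Junb* and *Jund* are higher in every rescue library, *Fosl2* and *Ier3* lower, and *Nr4a1* and *Myc* overlap.

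Among heat shock genes the inducible pair *Hspa1a* and *Hspa1b* rose unevenly. On both scales *Hspa1a* was not called without WT replicate 10 or 11 or rescue replicate 4, nor *Hspa1b* without WT replicate 6 or 10 or rescue replicate 4. *Hspa1b* was at 1.58, 0.812, 1.401 and 1.78 TPM in WT and 125, 24.4, 3.001 and 70.4 in rescue (log2 difference 3.71, adjusted p = 0.033), and *Hspa1a* at 0.638, 0.863, 0 and 0 against 48.1, 8.13, 1.88 and 31.2 (log2 difference 3.43, adjusted p = 0.029). Rescue replicate 3 lay close to WT for both, replicates 1 and 4 were highest, and limma-voom did not call either gene (adjusted p = 0.51 and 0.36). The genes are near-identical copies, so the split of reads between them is uncertain, and their promoters are alike at 247 of 250 bases. The promoter of *Hspa1a* (chr17:34972157-34972406, minus strand) is shown for its match to GAANNTTC, a unit of the heat shock element, in capitals.
Hspa1a: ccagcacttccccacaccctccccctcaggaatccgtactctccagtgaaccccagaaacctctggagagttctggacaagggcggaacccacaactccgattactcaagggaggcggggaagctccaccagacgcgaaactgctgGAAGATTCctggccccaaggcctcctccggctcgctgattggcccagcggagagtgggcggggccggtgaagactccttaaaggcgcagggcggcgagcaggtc

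This motif is present in 6.69% of promoters of the same length and lies 97 bases before the start site of *Hspa1a*. It is in 2 of 3 promoters of heat shock genes that rose (*Hspa1a* and *Hspa1b*) and in 1 of 5 of AP-1 genes that rose (*Jun*). The co-chaperone gene *Dnajb1* was called (log2 difference 0.43, adjusted p = 0.057), though not without WT replicate 6 or 11 or rescue replicate 1 or 4, while the constitutive *Hspa8* (log2 difference 0.02, adjusted p = 0.94) and *Hsp90ab1* (log2 difference -0.29, adjusted p = 0.104) were not. In all 3 of 20 heat shock genes rose (3.67% of all genes) and 0 fell. After GC correction 5 were higher (6.94% of all genes), limma-voom called 1, and the count was 1, 1, 1 and 0 without WT replicates 6, 10 and 11 and rescue replicate 4.

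Other stress and activation groups held few calls on both scales. Of 20 NF-kappaB genes 1 fell (*Ccl3*) and 0 rose, and of 16 integrated stress response genes only *Ppp1r15a* rose. Of 26 interferon response genes 1 rose, *Ifi27l2a* (log2 difference 1.07, adjusted p = 0.038), though not without WT replicate 6 or 11 or rescue replicate 4, and 0 fell, with *Ifi47* at 163, 182, 166 and 174 TPM in WT and 164, 165, 162 and 179 in rescue. Of 23 genes of ER folding 1 rose, the translocon subunit *Sec61b* (log2 difference 0.62, adjusted p = 0.0093), and 3 fell, including *Sel1l* of ER-associated degradation, at 52.7, 52.8, 47.9 and 53.1 against 33.97, 32.2, 33.1 and 30.3 TPM (log2 difference -0.66, adjusted p = 0.0089). The fall count was 1 without WT replicate 6 or rescue replicate 4. After GC correction it was also 1, with *Dnajc3* and *Edem1* not called (adjusted p = 0.30 and 0.15). After length correction *Edem1* was called (adjusted p = 0.093), and *Sel1l* and *Dnajc3* were not (adjusted p = 0.11 and 0.12). Of 11 MHC class I genes 1 rose, the immunoproteasome subunit gene *Psmb10* (log2 difference 0.52, adjusted p = 0.084). Its call was lost without any 1 of the WT replicates or rescue replicate 1 or 4. After rescaling 5 of these 11 were higher (6.29% of all genes), after GC correction 6 (6.94%) and after length correction 7 (7.62%), and limma-voom called 5. Their summed level was 8489 to 9149 TPM in WT and 9598 to 11107 in rescue, without overlap.

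Cytosolic ribosomal protein genes were higher in rescue as a group. Of 85 tested 74 rose and 0 fell, with a median log2 difference of 0.62 as deposited, 0.81 after rescaling, 0.83 after GC correction and 0.81 after length correction. After quantile normalization the median was 0.38, with 51 genes higher and 1 lower. Their transcripts together made up 118370 to 129140 TPM in WT and 175390 to 204130 in rescue. The count stayed between 66 and 76 without any single library, and it was 24 and 31 with WT replicates 8 and 11 or 6 and 10 alone. Many of these genes have processed pseudogenes with which reads may be shared.

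*Rps19*, of the small subunit, was at 409.6, 259, 309 and 363 TPM in WT and 817, 776, 728 and 892 in rescue (log2 difference 1.28, 95% CI 0.97 to 1.58, adjusted p = 0.0014). The stalk protein genes *Rplp1* and *Rplp2* rose as well, *Rplp1* from 4388, 2692, 3191 and 3030.4 to 7134, 7724, 5659 and 7762 TPM (log2 difference 1.10, adjusted p = 0.0055) and *Rplp2* from 831, 369, 439 and 423 to 1244, 1190.3, 1305 and 1451 (log2 difference 1.40, adjusted p = 0.0066). The largest rise of the group was that of *Rpl36*, from 738, 217, 379 and 375 to 1825, 1215, 1913 and 1743 TPM (log2 difference 2.08, 95% CI 1.39 to 2.77, adjusted p = 0.0057). In *Rpl36* and *Rplp2*, WT replicate 6 stood above the other WT libraries and still below every rescue library.

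Nuclear genes of the respiratory chain followed with smaller differences. Of 76 tested 38 rose (3.67% of all genes) and 0 fell, with a median of 0.37 (0.55 after GC correction), and 24, 25 and 23 rose without WT replicate 10, rescue replicate 1 or rescue replicate 4. With WT replicates 8 and 11 alone 10 rose, and with 6 and 10 alone 4. *Ndufb6*, of complex I, was at 119.7, 115, 105 and 106 TPM in WT and 199, 193, 206 and 218 in rescue (log2 difference 0.87, 95% CI 0.67 to 1.07, adjusted p = 0.0012), and *Uqcr11*, of complex III, at 154, 64.8, 101 and 92.3 against 257, 234, 202 and 328 TPM (log2 difference 1.35, adjusted p = 0.011). Of the 13 protein genes of mitochondrial DNA 1 rose and 0 fell (5 were higher after GC correction, against 6.94% of all genes). That gene was *mt-Co3* (log2 difference 0.75, adjusted p = 0.08), and with a library left out it was called on both scales only without rescue replicate 3, and the median was -0.14 as deposited and 0.33 after GC correction. Of 75 mitochondrial ribosomal protein genes 11 rose, among them *Mrpl14* (log2 difference 1.02, adjusted p = 0.004), and 0 fell. The count was 7 without WT replicate 10 or 11 or rescue replicate 4. After rescaling 17 were higher (6.29% of all genes) and after GC correction 21 (6.94%).

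**Figure D5:**
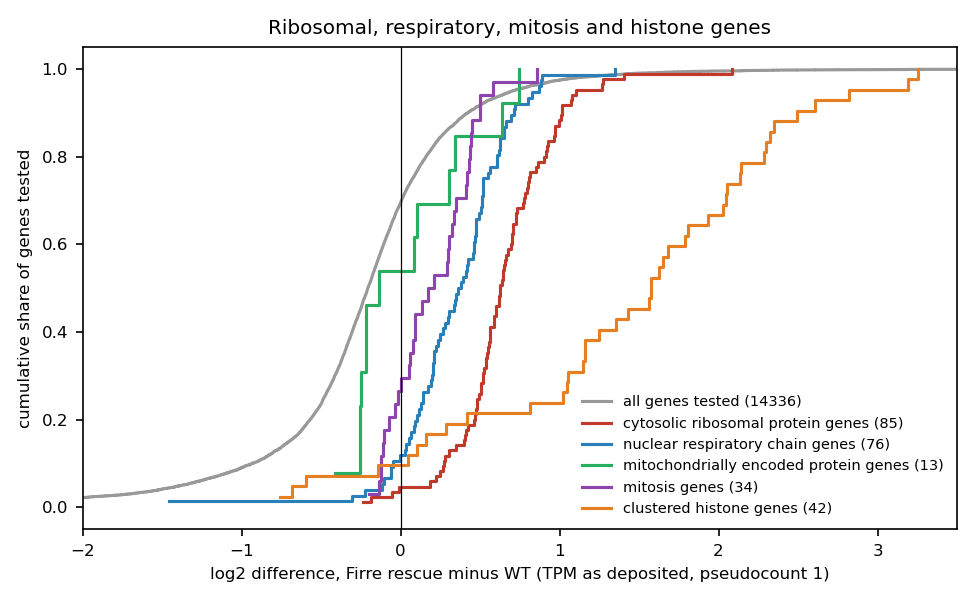
Cumulative share of the genes tested against the log2 difference (rescue minus WT, TPM as deposited, pseudocount of 1) for 5 gene groups and for all 14336 genes. The median of all genes lies at -0.21, that of cytosolic ribosomal protein genes at 0.62 and that of mitochondrially encoded genes at -0.14.

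Some replication-dependent histone genes rose in rescue from low levels. The mRNAs of this class mostly end in a stem-loop without a poly(A) tail. Of 42 tested 16 rose and 0 fell, with a median of 1.57 (1.41 after GC correction). The test by limma-voom called 7 of the 42, against 1611 of all 14336 genes. Without WT replicate 11 or rescue replicate 1, 10 rose. With WT replicates 8 and 11 alone 5 rose, and with 6 and 10 alone 6. *H1f5*, a linker histone, was at 7.36, 0, 5.06 and 3.22 TPM in WT and 53.6, 31.8, 49.2 and 15.7 in rescue (log2 difference 3.19, adjusted p = 0.017), and *H2bc3* at 1.86, 1.26, 1.89 and 2.405 against 9.44, 16.7, 37.4 and 11.3 TPM (log2 difference 2.60, adjusted p = 0.0066). In contrast *H2bc4*, the most abundant of the group in WT, was called lower as deposited (log2 difference -0.76, adjusted p = 0.026) and after GC or length correction (adjusted p = 0.087 and 0.059), and not after rescaling (adjusted p = 0.101). It was not called by limma-voom (adjusted p = 0.16). The libraries were made from poly(A)+ RNA, and the share of histone mRNA that the selection kept was not tested.

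Some cell-cycle genes rose, by smaller amounts. Of 34 mitosis genes 11 rose and 0 fell, with a median of 0.19 as deposited and 0.50 after GC correction. After rescaling 16 were higher (6.29% of all genes) and after GC correction 21 (6.94%). *Plk1*, a mitotic kinase, was at 48.7, 42.8, 31.5 and 49.8 TPM in WT and 70.9, 62.9, 94.3 and 88.3 in rescue (log2 difference 0.86, 95% CI 0.46 to 1.26, adjusted p = 0.022), and *Ube2c*, of the anaphase-promoting complex, at 79.4, 86.3, 65.3 and 74.2 against 112, 108, 98.7 and 113 TPM (log2 difference 0.50, adjusted p = 0.027). The count was 6, 4, 4, 7 and 5 (of 11) without WT replicates 6, 8 and 10 and rescue replicates 1 and 4. Of 43 DNA replication genes 10 were higher after rescaling, 12 after GC correction and 12 after length correction (7.62% of all genes). The test by limma-voom called 10. On both scales 5 rose and 0 fell (0 without WT replicate 8 or rescue replicate 4, 1 without WT replicate 11, 2 without WT replicate 6 or 10, and 3 without any 1 of rescue replicates 1 to 3). *Pcna*, the polymerase clamp, was at 375, 409, 399.5 and 369 against 437, 503, 431 and 532 TPM (log2 difference 0.29, adjusted p = 0.086). *Pcna* was called on both scales in 2 of the 8 fits that left out a library.

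The D cyclins moved apart. *Ccnd3* rose from 81.05, 70.8, 71.9 and 74.9 to 85.8, 104, 115 and 142 TPM (log2 difference 0.55, adjusted p = 0.047, not called without WT replicate 8, 10 or 11), whereas *Ccnd2* was at 202, 241, 229 and 188 TPM in WT and 146, 117, 152 and 148 in rescue (log2 difference -0.61, adjusted p = 0.016, and adjusted p = 0.12 after GC correction). *Ccnd1* fell too (log2 difference -0.91, adjusted p = 0.033). It was not called on both scales without WT replicate 6 or 10 or rescue replicate 1 or 2. The survival gene *Bcl2* fell from 148, 188, 164 and 147 to 86.8, 65.6, 101 and 73.7 TPM (log2 difference -0.99, 95% CI -1.31 to -0.66, adjusted p = 0.0055), and its groups did not overlap. In its family of 15 genes tested *Bik* rose (log2 difference 1.13, adjusted p = 0.052, and adjusted p = 0.21 by limma-voom), though not without WT replicate 6 or 10 or rescue replicate 1, and no other member was called on both scales.

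Of 30 hnRNP and SR protein genes 8 fell and 0 rose (3, 4, 3 and 3 fell without WT replicates 10 and 11 and rescue replicates 1 and 4), but after GC correction 1 was lower and 4 were higher (3.03% and 6.94% of all genes), and the log2 difference of *Hnrnph1* became -0.27 (adjusted p = 0.35) in place of -0.74. Of 17 glycolysis genes 1 fell, the phosphofructokinase gene *Pfkp* (log2 difference -1.26, adjusted p = 0.02), and of 20 cholesterol synthesis genes 0 were called on both scales (1 by limma as deposited, 1 by limma-voom and 1 at an unadjusted p under 0.05). *Neat1*, the scaffold RNA of paraspeckles, fell from 32.2, 17.1, 17.8 and 18.8 to 3.85, 2.198, 6.68 and 2.92 TPM (log2 difference -2.22, 95% CI -2.94 to -1.51, adjusted p = 0.0051). Among small nucleolar RNAs 2 of 55 rose and 3 fell, on few reads, close to the shares of all genes (3.67% and 4.94%). With 1 library left out, 0 rose without WT replicate 6, 10 or 11 or rescue replicate 1, and 2 to 5 fell. *C1qc*, a complement gene of macrophages, rose from 0.327, 2.798, 0 and 0.225 to 2.95, 37.6, 9.104 and 7.31 TPM (log2 difference 2.75, adjusted p = 0.039, and adjusted p = 0.16 by limma-voom), highest in rescue replicate 2 and not called on both scales without WT replicate 6, 10 or 11 or rescue replicate 4.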

How the data were processed

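Poly(A)+ RNA of sorted CLPs was made into libraries with the CATS RNA-seq kit v2 and sequenced paired-end. Per the labels and methods, the authors trimmed reads with cutadapt, mapped them to mm10 with TopHat2 2.1.1, counted them per gene with featureCounts and deposited TPM for 47643 genes. Strand and multi-mapping settings are not given in the sources used here. Groups came from the sample labels. The members and gene lists were chosen with earlier results of these data known. Some genes are in several lists, so the group counts are not independent. *Rag1* is an early lymphoid and a B-lineage gene, and *Ly6d* an early lymphoid and a plasmacytoid dendritic cell gene. *Bcl11b* is in the T-cell and innate lymphoid lists, *Ccr2* in the monocyte and homing lists, and *Gata2* in the basophil and stem cell lists.

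The filter on low values kept 14336 genes averaging 1 TPM or more in these 8 libraries. Tests used limma 3.58.1 (R 4.3.3; lmFit, then eBayes with trend) on log2(TPM + 1), two-sided, with Benjamini-Hochberg adjustment over all genes tested and calls at 0.1 or less. The study tested counts at the same threshold, with p-values calculated empirically by fdrtools. The empirical null, an alternative here that also draws on the spread of the data, called 0 genes. Reads were recovered from the spacing of TPM, with 98.5% of values whole within 0.05 reads, for depth and limma-voom. In the smallest library 1 read on 1 kb is worth 0.284 TPM. Fold changes on log2(TPM + 1) understate low genes. For spline corrections (4 df), exon GC content was taken from Gencode vM1 by matching identifiers (90.6% of genes tested). Gene coordinates and promoters are RefSeq (GRCm38.p6). The fit was tested on simulated data.

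Named genes are *Firre*, the CLP markers, up to 4 members of each list with the largest difference among those called on both scales without overlap (else up to 3 of highest TPM), and the 10 largest rises and falls. Other genes, such as *Ebf1* and *Pax5*, were named for their roles after their values were seen. The methods give 4 mice for each group. Intervals on reads cover counting error only. Alternatives were other pseudocounts, filters and scalings (median-ratio and quantile), all 12 libraries in the fit, no or robust trend, an empirical null, GC and length correction, limma-voom, WT pairs by library number and each library left out.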

Additional observations from a re-analysis of the deposited data

Results flagged for a closer look

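In 250 sets of 4 libraries (127 named genes, 2 groups) 18 held a library far from the other 3 on log2(TPM + 1), where chance gives about 1 in 20 sets, or 12.5. That chance rate does not hold where the other 3 are all at 0, since any value above 0 is then flagged. This was so in rescue for *Fcer1a*, *Ccr1*, *Ms4a2*, *Snord91a* and *Gzmb*. Rescue replicate 2 stood apart in 7: it was above the others in *Fcer1a* (2.83), *Ppbp* (2.05), *Clec9a* (0.73), *Ccr1* (0.36), *Ms4a2* (0.17) and *Snord91a* (2.76), and below them in *Ccnd2* (6.88). Rescue replicate 4 was low in *Il9r* (2.15) and *Ndufb4* (6.32) and high in *Mrpl14* (6.94). Rescue replicate 1 was high in *Angpt1* (5.88) and *Gzmb* (0.21), and rescue replicate 3 low in *Itga2b* (0.17). In WT, replicate 6 was high in *Itga2b* (6.55) and *Neat1* (5.05), replicate 8 low in *Ndufb4* (5.30) and *Cdca8* (5.21), and replicate 10 low in *Sel1l* (5.61).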

How the results depend on the processing

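Of the 114 named genes called as deposited, 69 kept their call in every alternative but the empirical null and the fits with 2 WT libraries. With those fits included 41 kept it, and 0 of 3132 gene and setting pairs reversed in direction. No paired analysis was possible because WT and rescue libraries share no replicate number. Depth limits low genes most in WT replicate 8, with 10991633 reads. The cause of the changes below was not tested. For all genes called as deposited (2251, 528 higher and 1723 lower), counts of all, higher and lower were 1180, 327 and 853 at an adjusted p of 0.05, 1295, 901 and 394 after GC correction, 375, 148 and 227 with WT replicates 8 and 11 only and 578, 164 and 414 with 6 and 10. With all 12 libraries in the fit 3526 were called, 2822 of them lower. With no filter 340 were higher. Higher and lower counts were 902 and 708 after median-ratio rescaling, 854 and 740 after quantile normalization and 1087 and 516 after length correction. Without *Firre*, ribosomal, mitochondrial and immunoglobulin genes 1027 were lower, and limma-voom called 868 lower. The empirical null called 0 genes (981 at an unadjusted p under 0.05), among them 0 of the B-lineage, basophil, AP-1 and ribosomal protein genes. *Firre* missed the threshold under it (log2 1.75, adjusted p = 0.711) and with each WT pair (1.62 and 1.87). On recovered reads, limma-voom called 9 basophil and mast cell genes lower. As deposited, WT replicates 8 and 11 alone left 7 B-lineage and 36 ribosomal protein genes higher. In both scalings they left 129 genes higher and 135 lower, with 7 B-lineage and 24 ribosomal protein genes, and WT replicates 6 and 10 left 138 and 281, with 31 ribosomal protein genes. Without each library in turn, 1153 to 3069 genes were called, 321 to 562 higher and 810 to 2507 lower, and in both scalings 316 to 558 higher and 375 to 789 lower. The same fits as deposited called 13 to 15 B-lineage, 12 to 15 basophil, 5 AP-1 and 68 to 76 ribosomal protein genes.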
